A study of Mus musculus with 6 samples.

Results

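The mitosis and kinetochore genes examined here were 48 listed genes that encode the kinases, checkpoint proteins, kinetochore subunits, spindle motors and cytokinesis proteins of dividing cells. All 48 were measured, out of 19937 genes that the array's gene table pairs with at least 1 probe set of a single symbol. A total of 47 matched under the listed symbol, and Sgol1 matched under its newer symbol Sgo1 through the RefSeq gene table. Top2a alone had a further probe set, and the brighter one stood for it.

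The cells were mouse pro-B cells of strain C57/BL6, transformed with the v-Abl oncogene. All 6 samples carried the genotype written as Foxo1f/f; ERCre, that is, loxP-flanked alleles of the transcription factor gene Foxo1 and a Cre recombinase that tamoxifen switches on. The cells were split between both conditions, 3 samples without tamoxifen and 3 with 1 uM for 2 days. The labels call the first group WT and the second Foxo1 knockout, but both carry the floxed alleles and the Cre. No cells with unfloxed Foxo1 given the same tamoxifen were analysed here. The sources used here do not give the promoter that drives the Cre, or say whether the samples of a group were separate cultures or clones. The p-values and intervals therefore speak only to the spread among these 6 samples, and that spread may be technical.

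Mitosis is run by the kinase CDK1 with its cyclin partners, helped by the polo and aurora kinases. Kinetochores built on the centromere tie chromosomes to spindle microtubules, the spindle checkpoint holds the cell until every chromosome is attached, and the anaphase promoting complex then releases the sister chromatids. Most of these genes are transcribed late in the cell cycle. They are held by a repressor complex of the retinoblastoma family and later driven by the activators B-MYB and FOXM1. These factors act through a promoter element known as CHR. The CCAAT box is a separate element of such promoters. FOXO factors are known in many cells as brakes on the cycle, and v-Abl transformed pro-B cells divide without added cytokine.

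The promoters of these genes shared sequence features that the list did not use. A table of promoters from RefSeq (build GRCm38.p6), holding 250 bases before and 50 bases after each transcript start, had 45 windows for 40 of the genes. Ccna2, Cdc25c, Foxm1, Aurkb, Incenp, Spc24, Kif20a and Tpx2 had no entry in it. Each motif was searched on both strands, and no matches of different motifs overlapped in the members' windows. The CHR form TTTGAA was present in 29 of the 45 windows (64.4%), against 17.9% of all 32851 windows. The CCAAT box, searched as CCAAT, was present in 35 of 45 (77.8%), against 37.4% of all windows. A CHR of either form (TTTGAA or TTTAAA) together with a CCAAT box was found in 26 of 45 windows (57.8%) and in 10.7% of all. The form TTTAAA, which reads the same on both strands, was in 8 of 45 (17.8%), against 13.2% of all. The E2F sequences TTCCCGC and TTTGGCGC were in 3 (6.67%) and 1 (2.22%) of the 45 windows, against 4.60% and 0.514% of all. The sequence GTAAACA, searched as a FOXO site though not particular to FOXO factors, was in 3 of 45 windows (6.67%), against 3.65% of all. The 3 windows were those of Cenpk, Ect2 and Nuf2. A match is a description of the letters and not evidence of binding, and the absence of a match says only that these letters are not in the window.

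The 6 stretches that follow show these elements in genes on which the results turn, from 100 bases before the start to 50 bases after it, 5′ to 3′ on the gene's strand, with matches to the searched motifs in capitals. Cdk1 lies at chr10:69352863-69353012 (minus strand), Ccnb2 at chr9:70421505-70421654 (minus strand), Plk1 at chr7:122159335-122159484 (plus strand), Kif23 at chr9:61946750-61946899 (minus strand), Cenpf at chr1:189688037-189688186 (minus strand) and Cenpk at chr13:104228866-104229015 (plus strand).
Cdk1: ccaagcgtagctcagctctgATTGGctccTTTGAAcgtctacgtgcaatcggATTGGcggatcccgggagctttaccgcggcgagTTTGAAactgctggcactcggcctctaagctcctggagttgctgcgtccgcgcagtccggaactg
Ccnb2: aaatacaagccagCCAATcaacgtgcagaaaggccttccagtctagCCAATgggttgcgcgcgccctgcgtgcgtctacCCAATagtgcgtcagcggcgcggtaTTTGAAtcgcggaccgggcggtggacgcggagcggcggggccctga
Plk1: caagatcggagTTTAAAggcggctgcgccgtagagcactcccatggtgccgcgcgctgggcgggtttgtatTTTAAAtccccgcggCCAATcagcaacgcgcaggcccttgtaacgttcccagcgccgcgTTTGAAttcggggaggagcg
Kif23: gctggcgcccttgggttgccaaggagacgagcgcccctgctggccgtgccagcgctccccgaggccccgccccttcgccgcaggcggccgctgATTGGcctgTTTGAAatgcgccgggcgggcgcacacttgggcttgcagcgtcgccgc
Cenpf: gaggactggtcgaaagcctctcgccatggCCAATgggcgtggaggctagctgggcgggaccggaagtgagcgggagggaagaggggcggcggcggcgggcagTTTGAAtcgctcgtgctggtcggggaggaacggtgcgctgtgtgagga
Cenpk: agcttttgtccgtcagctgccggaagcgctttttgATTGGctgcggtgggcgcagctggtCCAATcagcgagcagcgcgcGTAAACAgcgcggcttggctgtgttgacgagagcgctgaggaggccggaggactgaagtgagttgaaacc
Ccnb2 shows the textbook arrangement of this gene class, with 3 CCAAT boxes in a row followed by a CHR at the start of the transcript. Cdk1 has each CCAAT box in reverse orientation, written ATTGG, with a CHR after it. Kif23 and Cenpf have their CHR at nearly the same place, 2 bases past the first base of the transcript. Cenpk has no CHR, and its GTAAACA lies 20 bases before the start in 1 of its 3 windows. In 25 of the 40 genes a CHR fell within 50 bases of the start.

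The arrays gave a single intensity per probe set, with array medians between 100.9 and 109.1. Intensities are not comparable between probe sets, and with 3 arrays a group their number limits the precision. Mean intensities of the members lay between 189 and 4223, above every array's median, so none was measured at the dim end of the arrays. Among markers of the cells, 8 of 10 measured pro-B cell genes (Cd79a, Cd79b, Pax5, Ebf1, Vpreb1, Igll1, Blnk and Il7r) were above the array medians, and Rag1 and Kit were below. Their summed intensity ranged from 13039 to 15844 in untreated and from 15408 to 16658 in tamoxifen samples, a sum that joins markers of opposite sign. None of the 10 passed limma, but 6 had an unadjusted p under 0.05 (60%, against 5.11% of all probe sets), among them Cd79b at 0.52 and Ebf1 at -0.51 on the log2 scale. None of 6 T cell, 8 myeloid and 4 NK cell markers had a mean above the array medians, and 1 of 3 erythroid and 3 of 5 stromal markers did. The summed T cell markers ranged from 353 to 464 in untreated and from 357 to 435 in tamoxifen samples, and the summed myeloid markers from 460.3 to 523 and from 469 to 490.1. The targeted gene, Foxo1, had intensities of 806, 624 and 512 without tamoxifen and of 116, 151 and 134 with it, a fall of every treated sample below every untreated one (log2 fold change -2.13 ± 0.15, SE; limma adjusted p = 0.0178). With single arrays left out the fold change ran from -2.26 to -1.97, and its limma adjusted p from 0.0276 to 0.156, under the threshold only without untreated sample 1. The sources used here do not say whether that probe set covers the floxed exon.

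No mitosis or kinetochore gene passed the test. With limma and Benjamini-Hochberg adjustment over all 34760 probe sets, 0 of 48 had an adjusted p under 0.05, where 0.0575% of all probe sets (20) did. An unadjusted p under 0.05 was seen for 1 of 48, Kif23, against 5.11% of all probe sets and 7.9% of genes above the array medians. The log2 fold changes ran from -0.21 for Ttk to 0.16 for Kif20b, with a median of -0.03 and quartiles of -0.09 and 0.05, beside a median of -0.01 and quartiles of -0.07 and 0.05 over all 19937 genes. Of the 48, 20 were above 0 and 28 below (41.7% above, against 44.5% of all genes). The median was 0.00464, on the other side of 0, where arrays were scaled to a common median. In bulk samples, a change in the share of cells in mitosis and a change in RNA per cell cannot be told apart.

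The intervals show, gene by gene, how large a change the spread among these arrays leaves room for. They are not adjusted for the number of genes, and that spread may be technical. In all 48 genes the 95% interval of the fold change lay inside 2-fold in either direction, and in 45 of 48 (93.8%) inside 1.5-fold, against 93.1% of the 10423 genes above the array medians. The smallest adjusted p of the 48 was 0.924, for Kif23, and each of the others had 0.9995. The 3 genes whose interval reached past 1.5-fold were Cenpf, Kif20b and Cenpe. For 39 of 48 the fold change was smaller than the SD within groups, a share not taken over all genes, so it marks no trait of this set. The median SD within groups was 0.11 on the log2 scale, against 0.12 for genes above the array medians, so as a set these genes were measured about as tightly as others of such intensity.

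**Figure D1:**
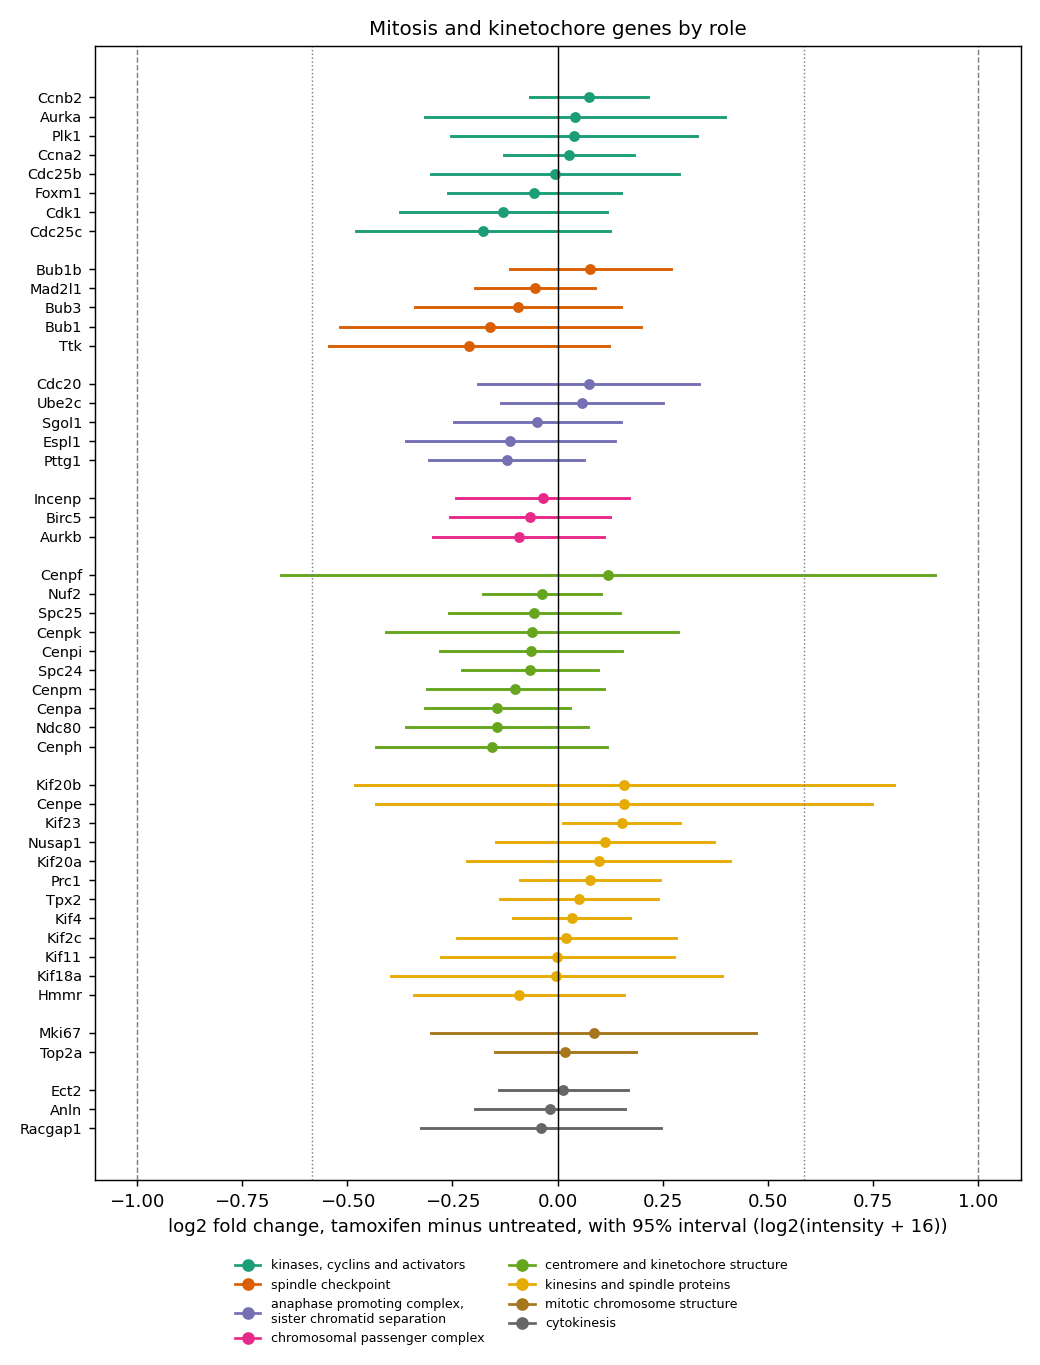
Log2 fold change (horizontal axis, tamoxifen minus untreated, on log2(intensity + 16)) of each of the 48 genes, grouped and coloured by role, with points for the estimate and bars for the 95% interval of the limma fit over 3 and 3 arrays. Dotted lines mark 1.5-fold and dashed lines 2-fold; every interval lies inside 2-fold, and those of Cenpf, Kif20b and Cenpe reach past 1.5-fold.

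The kinases, cyclins and activators that drive entry into mitosis lay on both sides of 0, with 4 of 8 above (median 0.0097, range -0.18 to 0.08). With single arrays left out the count above 0 ran from 2 without untreated sample 2 (median -0.019) to 5 without untreated sample 1 (median 0.044), and the median was below 0 without any other array (-0.048 without untreated sample 3, -0.039, -0.0058 and -0.0088 without tamoxifen samples 1, 2 and 3). Cdk1, the mitotic kinase, measured 995, 884 and 743 without tamoxifen (samples 1, 2 and 3) and 942, 765 and 716 with it. The groups overlapped, with means of 874 ± 126 and 807 ± 119 (SD, n = 3). Each tamoxifen value was below the untreated value of the same number. Such an order ran upward in other members, among them Kif20a and Kif23, and its share over all genes was not taken. The log2 fold change was -0.13 ± 0.10 (SE, limma adjusted p = 0.9995, and 0.762 with the sample number as a block in the fit). Ccna2, the cyclin of S phase and mitotic entry, measured 2742, 2773 and 2671 untreated and 3122, 2665 and 2597 after tamoxifen, so that 1 tamoxifen sample was above and the other two below every untreated one. Its log2 fold change was 0.03 ± 0.06 (SE), which turned to -0.00332 with array weights. Ccnb2, a B-type cyclin that activates CDK1, measured 2742, 2690 and 2575 untreated and 3089, 2680 and 2716 after tamoxifen, and its log2 fold change was 0.08 ± 0.06 (SE). Its groups overlapped in the deposited intensities and were apart only after quantile normalization.

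Plk1, the polo kinase of centrosome maturation and cytokinesis, measured 898, 728 and 682 untreated and 970, 700 and 737 after tamoxifen. Sample 1 was the highest in both groups, and the log2 fold change was 0.04 ± 0.12 (SE). Aurka, the centrosomal aurora kinase, had the same order of samples, with 635, 490 and 421 untreated and 652, 468 and 485 after tamoxifen (log2 fold change 0.04). Foxm1, the forkhead factor that activates late cell cycle genes, measured 1036, 914 and 904 untreated and 903, 927 and 943 after tamoxifen, and its log2 fold change was -0.06 ± 0.09 (SE). Of the phosphatases that activate CDK1, Cdc25c measured 434, 490 and 422 untreated and 516, 356 and 350 after tamoxifen (log2 fold change -0.18 ± 0.13, SE). Its tamoxifen samples lay on both sides of the untreated ones, and Cdc25b (-0.0072) had the opposite sign under other scalings.

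Spindle checkpoint genes were below 0 in 4 of 5 cases (median -0.09), none past the test. Ttk, the MPS1 kinase that starts checkpoint signalling, had the lowest fold change of the 48. It measured 974, 1263 and 1088 untreated and 871, 1055 and 968 after tamoxifen, with means of 1109 ± 146 and 965 ± 91.9 (SD, n = 3), and the log2 fold change was -0.21 ± 0.14 (SE, limma adjusted p = 0.9995). Bub1, the checkpoint kinase at kinetochores, measured 1890, 2417 and 2249 untreated and 1744, 2113 and 1980 after tamoxifen (-0.16 ± 0.15, SE). In both genes sample 1 was the lowest of its group, and the groups overlapped. Each tamoxifen value was below the untreated value of the same number, an order whose share over all genes was not taken. In Bub1b, of the same role, each was above it on the normalized scale. With the sample number as a block in the fit, the limma adjusted p was 0.553 for Ttk and 0.684 for Bub1. Mad2l1, the MAD2 protein that inhibits CDC20, measured 3181, 3365 and 3089 untreated and 3351, 3060 and 2915 after tamoxifen (-0.05 ± 0.06, SE). Bub3 (-0.09), which brings BUB1 to kinetochores, and Bub1b (0.08), which encodes BUBR1, had groups that overlapped.

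Genes of the anaphase promoting complex and of sister chromatid separation had 2 of 5 above 0 (median -0.048). The median was -0.0039 without untreated sample 2 and -0.0017 without tamoxifen sample 3, with 2 of 5 above 0 in each. Pttg1 encodes securin, which holds separase inactive until anaphase. It measured 1282, 1267 and 1273 without tamoxifen (samples 1, 2 and 3) and 1158, 1191 and 1172 with it. Every tamoxifen value was below every untreated one, with means of 1274 ± 7.49 and 1173 ± 16.3 (SD, n = 3) in the deposited intensities. After quantile normalization the groups were still apart but more spread, with an SD within groups of 0.086 on the log2 scale. The log2 fold change on that scale was -0.12 ± 0.08 (SE, limma adjusted p = 0.9995). Groups without overlap were seen in 4 of 48 members on the normalized scale, Kif23 and Ccnb2 higher and Cenpa and Pttg1 lower after tamoxifen. Such groups were seen in 9.89% of all probe sets and in 13.5% of genes above the array medians. Espl1, which encodes separase, measured 214, 201 and 179 untreated and 168, 171 and 207 after tamoxifen (-0.11 ± 0.10, SE), with overlap. Cdc20 (0.07) and Ube2c (0.06), the activator and the E2 enzyme of the complex, and Sgol1 (-0.05), the shugoshin that protects centromeric cohesin, did not pass the test.

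The chromosomal passenger complex corrects faulty attachments, and its members Aurkb (-0.09), Birc5 (-0.07) and Incenp (-0.04) encode the aurora B kinase, survivin and the scaffold. All 3 were below 0 in this fit, with groups that overlapped, and 1 of them was above 0 without untreated sample 1 or without tamoxifen sample 2.

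Genes of the centromere and kinetochore were below 0 in 9 of 10 cases (median -0.06), and none passed the test. With single arrays left out, 7 to 10 of the 10 were below 0: all 10 without untreated sample 1 (median -0.11, lowest limma adjusted p = 0.787) and 7 without untreated sample 2 (median -0.04). Cenpa, the histone H3 variant that marks the centromere, measured 1057, 987 and 883 untreated and 924, 833 and 912 after tamoxifen. Its means were 976 ± 87.5 and 889 ± 49.4 (SD, n = 3), its log2 fold change was -0.14 ± 0.07 (SE, limma adjusted p = 0.9995), and its groups were apart after normalization but overlapped in the deposited values. Ndc80 encodes the microtubule-binding arm of the kinetochore. It measured 1781, 2013 and 1949 untreated and 1716, 1789 and 1713 after tamoxifen (-0.14 ± 0.09, SE). In the deposited values its groups overlapped only in that untreated sample 1 was below tamoxifen sample 2. After normalization untreated sample 1 was below tamoxifen sample 3 as well. The partners of Ndc80 in the same 4-subunit complex were nearer 0, with Nuf2 at -0.04, Spc24 at -0.07 and Spc25 at -0.05.

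Within the inner kinetochore network that sits on CENP-A, Cenph measured -0.16, Cenpi -0.06, Cenpk -0.06 and Cenpm -0.10. Cenpm, Cenpi and the separase gene Espl1 had the 3 dimmest probe sets of the list. Cenpm measured 215, 178 and 195 untreated and 181, 174 and 194 after tamoxifen, and Cenpi 276, 313 and 242 untreated and 297, 249 and 256 after tamoxifen. Both had overlapping groups. Cenpf, a large protein of the outer kinetochore, was the one gene of this role above 0 (0.12 ± 0.32, SE), and the samples behind that value are described further on.

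Kinesins and spindle proteins had 9 of 12 above 0 (median 0.06), 7 of 12 without untreated sample 1 (median 0.0073) and 11 of 12 with arrays scaled to a common median. Whether this role differs from the kinetochore genes was not tested. Kif23, a motor of the central spindle needed for cytokinesis, had the lowest unadjusted p of the 48. It measured 1629, 1617 and 1488 without tamoxifen (samples 1, 2 and 3) and 1813, 1721 and 1765 with it. The tamoxifen values were all above the untreated ones, with means of 1578 ± 78.2 and 1766 ± 45.8 (SD, n = 3). The log2 fold change was 0.15 ± 0.06 (SE, interval 0.01 to 0.29, limma adjusted p = 0.924), and it ran from 0.13 to 0.18 with any single array left out.

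The proteins that work beside KIF23 at the central spindle had values of 0.10 for Kif20a, a motor that carries the passenger complex, and 0.08 for Prc1, which bundles antiparallel microtubules. In cytokinesis, Ect2 (0.01), the exchange factor that activates RhoA, Racgap1 (-0.04), its partner, and Anln (-0.02), the scaffold of the contractile ring, lay around 0. Among motors of the spindle, Kif11 (-0.0012), which pushes the poles apart, and Kif18a (-0.0029), which limits microtubule length, had the fold changes nearest to 0. Kif2c (0.02), a microtubule depolymerase, and Kif4 (0.03), a chromosome arm motor, were close to it. The spindle assembly proteins Tpx2 (0.05), Nusap1 (0.11) and Hmmr (-0.09) also had overlapping groups.

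Mki67 and Top2a, both widely used as marks of proliferation, had intervals inside 1.5-fold. Top2a, the topoisomerase that untangles sister chromatids, measured 3886, 4460 and 4218 untreated and 4467, 4211 and 4094 after tamoxifen, and its log2 fold change was 0.02 ± 0.07 (SE, interval -0.15 to 0.19). Its dimmer probe set, at 97.6 ± 32.7 and 105 ± 22.9 (SD, n = 3), gave 0.13 ± 0.23 (SE). Mki67, which coats mitotic chromosomes, measured 2134, 2902 and 2891 untreated and 2538, 2885 and 2897 after tamoxifen (0.09 ± 0.16, SE). Sample 1 was the lowest in both groups, and without untreated sample 1 the fold change was -0.08. Top2a turned to -0.04 without that sample.

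**Figure D2:**
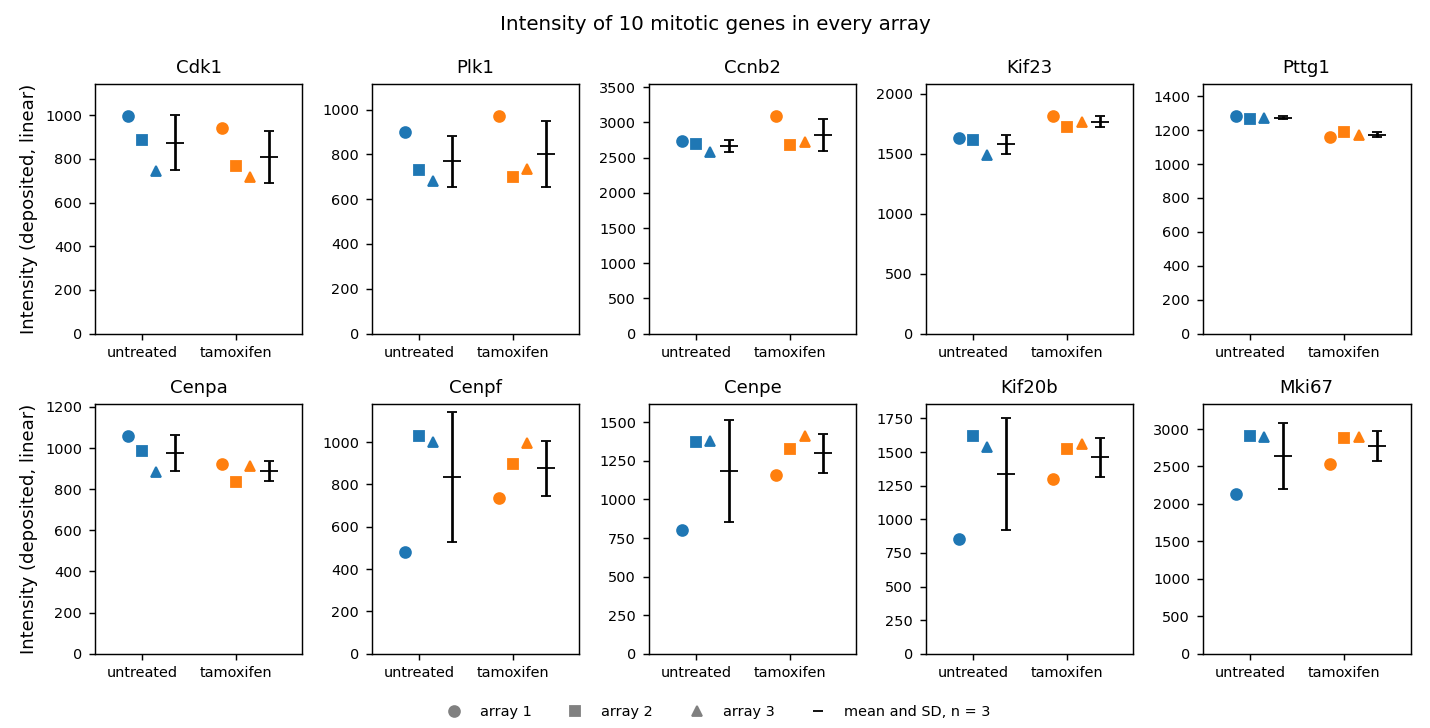
Deposited intensity on a linear axis (vertical) for 10 genes in each of the 3 untreated (blue) and 3 tamoxifen (orange) samples; marker shapes give the sample number, and the black bar is the mean with its SD (n = 3). In Kif23 and Pttg1 the groups are apart, and in Cenpf, Cenpe, Kif20b and Mki67 sample 1 (circle) is the lowest of each group.

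The larger differences among these genes were between samples of a group. Both samples numbered 1 stood apart from the other four in opposite directions for different members, a pattern found after the values were seen. On the normalized scale, in 14 of 48 genes untreated sample 1 and tamoxifen sample 1 were the 2 lowest of the 6, and in 11 they were the 2 highest, together 52.1% of the genes. The next pair of samples among the members was untreated 2 with untreated 3, at 27.1%. Over all genes the pair numbered 1 took both highest or both lowest places in 24.7%. It was the most frequent pair there too, before untreated 2 with tamoxifen 1 at 19.9%. The share was not taken over the genes above the array medians, where all 48 members lay. Among 78 further mitotic genes the pair numbered 1 took these places in 37. The median deviation of the members from their own means was between -0.02 and 0.04 on the log2 scale in every sample. Deviations of single members were widest in untreated sample 1, from -0.80 to 0.26.

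The genes lowest in both were Cenpf, Kif20b, Cenpe, Kif18a, Mki67, Bub1, Cenpk, Ttk, Kif11, Nusap1, Hmmr, Ndc80, Spc25 and Ect2. Cenpf measured 479, 1027 and 1000.1 without tamoxifen (samples 1, 2 and 3) and 736, 899 and 995 with it, so that untreated samples alone spanned 2.15-fold. Kif20b, a kinesin of late cytokinesis, measured 856, 1616 and 1539 untreated and 1296, 1525 and 1560 after tamoxifen (log2 fold change 0.16 ± 0.27, SE). Cenpe, the motor that carries chromosomes to the spindle equator, measured 800.3, 1374 and 1378 untreated and 1158, 1330 and 1409 after tamoxifen (0.16 ± 0.25, SE). Untreated sample 1 was lowest in all 3 genes, tamoxifen sample 1 second lowest, and the other four were close together. These genes had the largest SD within groups of the 48 (0.50, 0.41 and 0.37 on the log2 scale). Without untreated sample 1 their log2 fold changes were -0.25, -0.15 and -0.12, opposite in sign to the values with it.

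The genes highest in both were Cdk1, Plk1, Aurka, Bub1b, Bub3, Cdc20, Birc5, Incenp, Kif20a, Kif2c and Racgap1. Cdc20 measured 1028, 826 and 746 untreated and 1043, 859 and 849 after tamoxifen. Racgap1 measured 509, 453 and 375 untreated and 533, 388 and 399 after tamoxifen, and in both genes the samples numbered 1 were above the others. The labels do not say what a shared number marks. RNA integrity was checked per the labels' protocols, but its values, the culture density and the array batch are not given for single samples, and their part in this pattern was not tested.

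**Figure D3:**
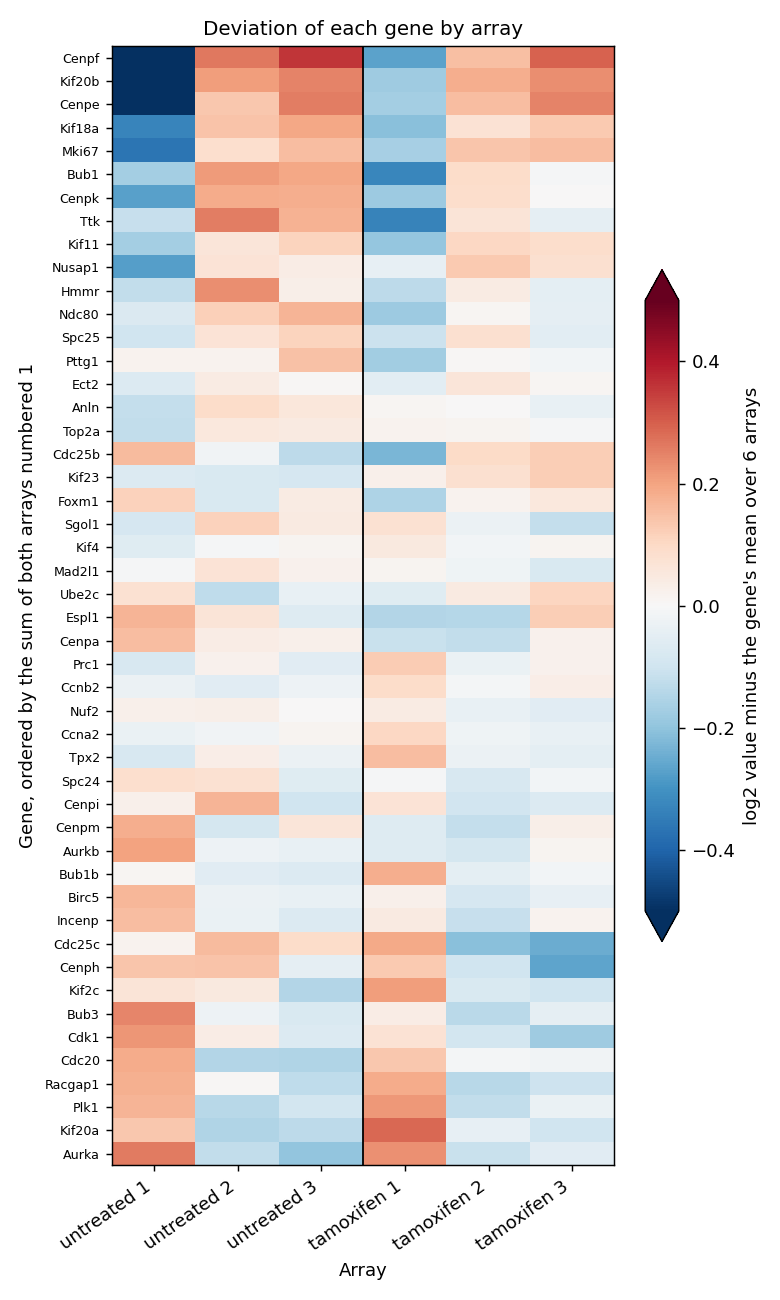
Deviation of each of the 48 genes (rows) in each sample (columns) from that gene's mean over the 6 arrays, on log2(intensity + 16) after quantile normalization; red is above and blue below the mean, colours saturate at the ends of the scale, and rows are ordered by the sum of both samples numbered 1. Untreated 1 and tamoxifen 1 are blue together at the top (Cenpf, Kif20b, Cenpe) and red together at the bottom (Aurka, Kif20a, Plk1), and no band separates untreated from tamoxifen.

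Members with and without the promoter elements had no call in either class. The 23 genes with both a CHR and a CCAAT box in a window had a median log2 fold change of 0.03 with 14 above 0, and the 17 with a window but without the combination had a median of -0.05 with 3 above 0. Without untreated sample 1 these medians were -0.02 and -0.08. Without untreated sample 2 they were nearer each other, at 0.019 and -0.018, with 13 of 23 and 7 of 17 above 0. The 3 genes with GTAAACA, Cenpk, Ect2 and Nuf2, measured -0.06, 0.01 and -0.04. These are descriptions of the genes, and no difference between the classes was tested.

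Further genes of mitosis outside the list were not called either. Of 78 measured, 0 passed the limma threshold and 1 reached an unadjusted p under 0.05 (1.28%). That share was 5.11% over all probe sets and 7.9% over genes above the array medians. Of the 78, 27 were above 0 (34.6%), with a median of -0.02 (0.00784 with arrays scaled to a common median). Nek2, a centrosomal kinase, measured 665, 627 and 555 untreated and 969, 700.0 and 680 after tamoxifen (log2 fold change 0.31 ± 0.11, SE, limma adjusted p = 0.882), with tamoxifen sample 1 far above the others. Kif22, a chromosome arm motor, had -0.23 ± 0.10 and Kntc1, a checkpoint subunit at kinetochores, -0.15 ± 0.07 (SE).

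**Figure D4:**
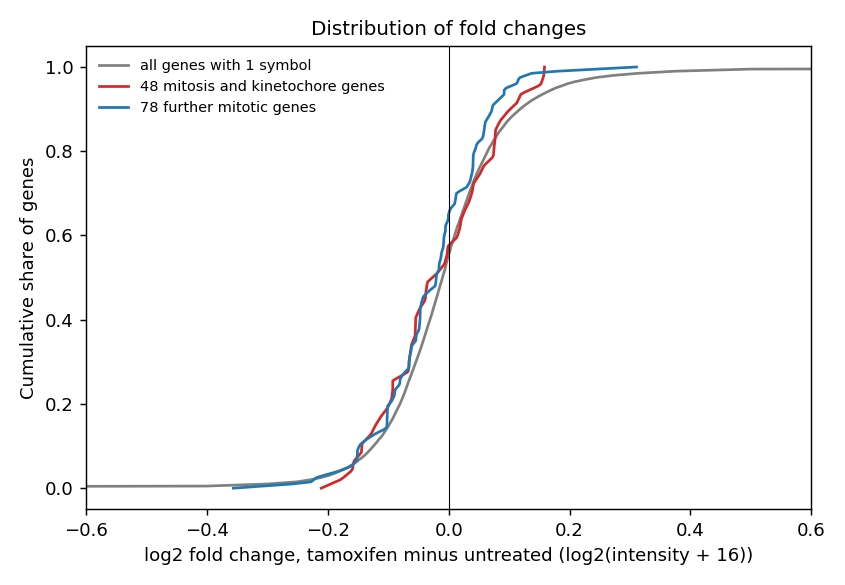
Cumulative share of genes (vertical axis) by log2 fold change (horizontal axis, tamoxifen minus untreated, log2(intensity + 16)) for all genes with 1 symbol (grey), the 48 mitosis and kinetochore genes (red) and 78 further mitotic genes (blue); the grey curve runs on past both ends of the axis. The red and blue curves rise near 0 beside the grey one, with medians of -0.03, -0.02 and -0.01 for members, further genes and all genes.

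Upstream regulators of the cell cycle were not called either, with 0 of 35 past the limma threshold. An unadjusted p under 0.05 was seen for 4 (11.4%). That share was 5.11% over all probe sets and 7.9% over the 10423 genes above the array medians, where 34 of the 35 lay. Rbl2, the p130 pocket protein of the repressor complex on these promoters, measured 525, 482 and 512 untreated and 707, 638 and 663 after tamoxifen. Its groups were apart, and the difference was 0.38 ± 0.07 on the log2 scale (SE, limma adjusted p = 0.36). Myc measured 3467, 3877 and 3671 untreated and 3225, 3136 and 3123 after tamoxifen (-0.22 ± 0.07, SE, limma adjusted p = 0.721). Ccnd3, a D-type cyclin, measured 440.2, 481 and 414 untreated and 424, 352 and 393 after tamoxifen (-0.21 ± 0.07, SE, limma adjusted p = 0.825), and its groups overlapped in the deposited intensities.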

How the data were processed

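Total RNA of 6 samples was hybridised to arrays as biotinylated cRNA per the labels' protocols. The authors deposited 1 linear intensity per probe set and array; their background correction, summary and normalization are not given in the sources used here. Values were taken as log2(intensity + 16), quantile normalised over the arrays and compared by a two-sided limma fit (lmFit, eBayes; version 3.58.1, R 4.3.3). Benjamini-Hochberg adjustment ran over 34760 probe sets, and calls had an adjusted p under 0.05. Fold changes are on that scale, which understates changes of dim genes, and printed intensities are the deposited ones. A probe set stood for a gene if paired with 1 symbol (21640 were, 1321 had several and 11799 were not listed), taking the one with the highest mean. The fit was run on simulated data with noise drawn independently for each probe set and array. Such data hold no pattern shared by samples of the same number, so they do not cover that pattern. Members, lists and motifs were chosen with earlier results of these data known. Named genes were the members with the 6 lowest p, the 3 highest and lowest fold changes, the 3 brightest and dimmest, 7 core genes and, of each other list, the 3 lowest p, by a written rule; Cenpf and the genes grouped by sample number were singled out after their values were seen. Alternatives were other scalings (cyclic loess, common median, none), pseudocounts of 1 and 64, a filter on dim probe sets, averaged probe sets, probe sets with 1 symbol only, an intensity trend, array weights, a replicate block and each array left out. Promoter sequences are RefSeq's, build GRCm38.p6. Figures were drawn with matplotlib 3.10.9.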

Additional observations from a re-analysis of the deposited data

How the results depend on the processing

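No member, further mitotic gene or upstream regulator passed the threshold under any alternative fitted (limma, 0 of each list; with an array left out, 0 to 3 members, 0 to 3 further genes and 2 to 5 regulators had an unadjusted p under 0.05), and the lowest adjusted p of a member was 0.53. Of 816 member values under alternatives, 767 kept their sign, and none passed the threshold. The dim filter, probe sets with 1 symbol, the intensity trend and the replicate block change only the p-values, so signs were fixed there. Averaged probe sets could move only Top2a. With arrays scaled to a common median the members' median turned from -0.03 to 0.00464 and the further genes' from -0.02 to 0.00784, and Cdc25b (0.021), Kif11 (0.014), Kif18a (0.029) and Anln (0.013) changed sign. With no further normalization Cdc25b (0.00534) and Kif18a (0.013) did, and with array weights Ccna2 (-0.00332), Cdc25b (0.085), Kif11 (0.028), Kif2c (-0.012) and Kif18a (0.0070). With an array left out the members' median ran from -0.041 to -0.00214, the further genes' from -0.035 to -0.015, and 18 to 23 members were above 0. Of the members that changed sign there, the kinase and cyclin group had these ranges: Ccna2 ran from -0.018 to 0.053, Plk1 from -0.059 to 0.13, Aurka from -0.062 to 0.18, Cdc25b from -0.075 to 0.10 and Foxm1 from -0.11 to 0.0084. Among checkpoint, passenger and kinetochore genes, Bub3 ran from -0.16 to 0.0040, Incenp from -0.078 to 0.032, Cenpf from -0.25 to 0.33, Cenpi from -0.13 to 0.0040 and Cenpk from -0.21 to 0.016. Among kinesins and spindle proteins, Kif11 ran from -0.088 to 0.097, Kif20a from -0.021 to 0.19, Kif20b from -0.15 to 0.32, Kif2c from -0.078 to 0.076, Kif18a from -0.17 to 0.10, Cenpe from -0.12 to 0.32 and Tpx2 from -0.013 to 0.087. Among the rest, Mki67 ran from -0.078 to 0.19, Top2a from -0.038 to 0.047, Anln from -0.082 to 0.022, Ect2 from -0.018 to 0.043 and Racgap1 from -0.14 to 0.040. Over all probe sets the calls numbered 20, and 3 with a common median, 12 with no further normalization, 11 with a pseudocount of 1, 46 without dim probe sets, 73 with averaged probe sets, 65 on probe sets with 1 symbol, 12 with an intensity trend, 39 with array weights, 0 with a replicate block (2525 at an unadjusted p under 0.05) and 0 to 6 with an array left out (at least 1360). Foxo1 missed the threshold with a common median (-2.12, adjusted p = 0.050025) and with a replicate block (-2.13, adjusted p = 0.0936), and ran from -2.26 to -1.97 with an array left out (adjusted p 0.0276 without untreated 1, up to 0.156 without another). The causes were not tested. Sample numbers were not taken as pairs: deviations of same-numbered samples correlated at 0.26, 0.05 and 0.30 over all probe sets and at 0.69, 0.60 and 0.60 across the 48 genes, which are not independent replicates. Untreated 2 correlated best with tamoxifen 1 over all probe sets (0.10), and untreated 3 with tamoxifen 2 across the 48 genes (0.68). The replicate block called 0 of 48 members (2 at an unadjusted p under 0.05), with adjusted p = 0.762 for Cdk1, 0.553 for Ttk and 0.684 for Bub1. The other role medians ran, with an array left out, from -0.10 to -5.4e-05 for the passenger complex, from -0.030 to 0.022 for cytokinesis, from -0.058 to 0.12 for Mki67 and Top2a, and from -0.10 to -0.056 for the checkpoint.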
